A study of Sus scrofa with 2 samples.

Results

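Blood endothelial cells, which line the inside of blood vessels, were followed in droplet single-cell RNA sequencing of pig skin. They were picked from both deposited count matrices by marker genes. A barcode was kept when it passed the study's maxima of 4500 genes, 30000 unique molecular identifiers (UMIs, tags that let PCR copies of a transcript be counted once) and 10% of UMIs on 13 mitochondrial protein genes. It also had to hold at least 3 UMIs of VWF, CDH5 and MECOM together, fewer than 2 UMIs of the lymphatic gene PROX1, less than 1% of its UMIs on COL1A1, COL1A2 and COL3A1, and less than 0.3% on the keratin gene KRT5. This rule found 204 of 2775 filtered fresh cells (7.35%, exact 95% binomial interval 6.41 to 8.39%) and 250 of 4223 filtered cryopreserved cells (5.92%, interval 5.23 to 6.67%), or 454 of 6998 in all. The matrices hold 4379 fresh and 4860 cryopreserved barcodes before filtering.

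Dorsal skin of healthy male farm pigs of about 30 kg was taken with a 4 mm punch, dissociated with enzymes and freed of dead cells, and about 8000 cells entered each library. The fresh library came from cells with no treatment, and the cryopreserved library, labelled frozen, from cells stored in liquid nitrogen in 90% FBS and 10% DMSO and then thawed. No genotype is given, whether 1 pig gave both libraries is not stated in the sources used here, and the extraction text of both samples describes freezing. With 1 library per condition no test was made, and the values describe these libraries. Intervals cover counting error only or, for medians, the spread among cells of a library, and not variation among animals. Of all barcodes, 6 occurred in both libraries, and 2 of the blood endothelial cells carried a barcode that was also present in the other library, though not in a blood endothelial cell there.

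Endothelial cells hold each other through VE-cadherin (CDH5), claudin-5 (CLDN5) and PECAM1, store von Willebrand factor (VWF) for clotting, and decide where leukocytes leave the blood. That exit takes place in small veins, where the chemokine-binding receptor ACKR1 and P-selectin (SELP) mark the venular lining, while arterial endothelium uses Notch signals and connexins such as GJA4. ETS-family transcription factors, including ERG, FLI1 and ETS1, hold the endothelial program in place, and MECOM and the nuclear alarmin IL33 are further endothelial genes.

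In the RefSeq annotation of the Sscrofa11.1 genome, VWF lies on chromosome 5 (64516627 to 64655938), MECOM on chromosome 13 (107753207 to 108336136), IL33 on chromosome 1 (215899830 to 215941944) and CLDN5 on chromosome 14 (51161490 to 51162382). The 250 bases before the annotated start of the junction gene CLDN5, an endothelial marker outside the rule that lymphatic cells share, are printed 5′ to 3′ as an example of an endothelial promoter, with GGAA, the core of ETS sites, or its reverse complement TTCC in capitals.
CLDN5 promoter, chr14:51162383-51162632, minus strand: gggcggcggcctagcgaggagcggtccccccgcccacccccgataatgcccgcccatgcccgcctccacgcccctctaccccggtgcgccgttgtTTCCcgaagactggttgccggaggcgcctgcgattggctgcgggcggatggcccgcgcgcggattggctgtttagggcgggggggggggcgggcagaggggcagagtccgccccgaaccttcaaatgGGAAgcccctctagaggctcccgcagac
The longer motif AGGAAG on either strand was found in 0 of the 4 marker promoters examined (VWF, MECOM, IL33 and CLDN5) and in 24.8% of 20664 promoters of this length. The core GGAA, searched on both strands after that result was seen, occurred 3 times before MECOM, 2 times before IL33, 2 times before CLDN5 and 0 times before VWF. It occurred in 92.7% of all promoters with a median of 3 matches, and AGGAAG matches contain it. These matches describe letters in a window only.

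The chosen cells carried endothelial genes that the rule had not used. IL33 had a UMI in 63.7% of fresh cells (exact 95% binomial interval 56.6 to 70.3%) and 60.3% of cryopreserved cells (interval 53.7 to 66.7%) after each cell was thinned to 2000 UMIs, which left out 3 fresh and 18 cryopreserved cells with fewer. Without thinning the shares were 80.4% and 73.2%. PECAM1, the platelet-endothelial adhesion molecule, had a UMI in 77.1% and 73.7% of thinned cells, CLDN5 in 39.3% and 40.9%, and the ETS factor ERG in 77.1% and 66.8%. The sialomucin EMCN was found in 61.2% and 60.8%, and FLT1, a VEGF receptor, in 65.7% and 68.5%. In keratinocytes, chosen by their keratins, IL33 was found in 0.216% and 0.719% of cells thinned in the same way.

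Lymphatic endothelial cells, defined by at least 2 PROX1 UMIs, shared some of these genes and not others. The share with PECAM1 was 72.2% (fresh) and 70.4% (cryopreserved) in lymphatic cells, near that in blood endothelial cells. The share with CLDN5 was 44.4% (interval 34 to 55.3%) and 53.1% (interval 41.7 to 64.3%) in lymphatic cells, above the 39.3% (interval 32.5 to 46.4%) and 40.9% (interval 34.6 to 47.6%) in blood endothelial cells, with overlapping counting intervals. Of the other endothelial markers outside the rule, SOX18, EGFL7, TIE1, S1PR1 and ECSCR also had larger fresh shares in lymphatic cells, and the rest smaller ones. The fresh SOX18 share was 45.6% (interval 35.0 to 56.4%) in lymphatic against 25.4% (interval 19.5 to 32.0%) in blood endothelial cells, and the EGFL7 share 27.8% against 14.9%. IL33 was found in 12.2% and 12.3% of lymphatic cells, FLT1 in 5.56% and 2.47%, and PLVAP, which forms the diaphragms of fenestrae and caveolae, in 2.22% and 4.94% against 52.7% and 65.5% of blood endothelial cells. PROX1 was found in 2.99% and 1.29% of thinned blood endothelial cells, which the rule had limited. Beta-globin (HBB), RNA of red blood cells, had a UMI in 25.9% and 28.9% of thinned blood endothelial cells, and the 6 other classes ranged from 17.1 to 29.3% in the fresh and from 19.8 to 34.3% in the cryopreserved library.

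**Figure D1:**
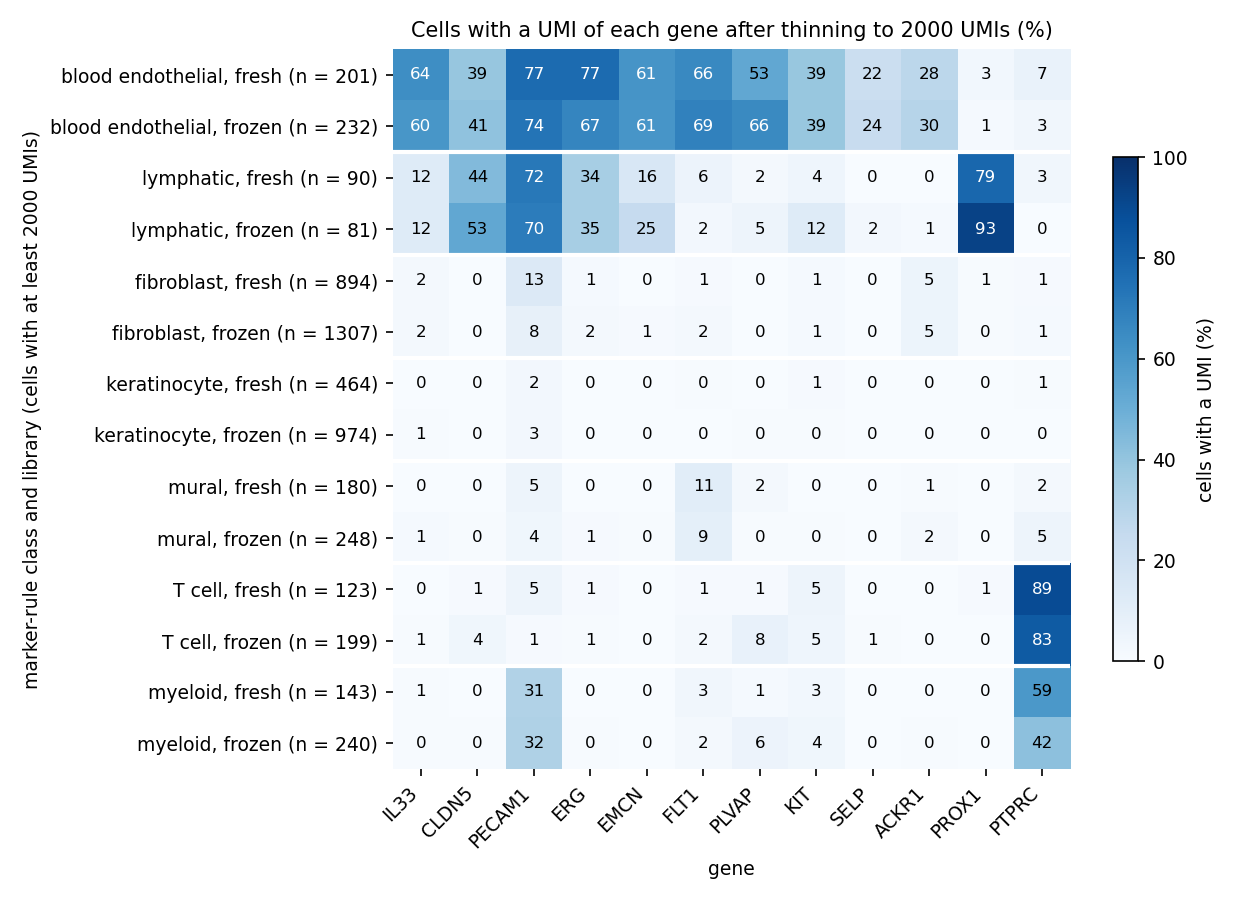
Share of cells (percent, color and printed number) with a UMI of 12 genes (horizontal axis) in blood endothelial cells and in 6 other marker-rule classes (vertical axis, each library alone) after thinning to 2000 UMIs. Blood endothelial rows are darkest from IL33 to ACKR1 except for CLDN5, which reaches 53.1% in cryopreserved lymphatic cells, and PROX1 and PTPRC are darkest in lymphatic cells and T cells.

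The genes most concentrated in these cells, ranked by the smaller of the 2 libraries' ratios to all other filtered cells, were led by SELP, at 514 CPM (UMI counts scaled by TMM to a common library total) in fresh and 589 CPM in cryopreserved cells, against 0.291 and 1.94 CPM in all other cells. The ranking describes cells chosen by endothelial genes and tests nothing. After the rule gene MECOM came SERTM1, FAM167B and the apelin receptor APLNR, and the rest of the first 10 were ENSSSCG00000006286, ADGRL4, NR5A2, CLEC1A and the endothelial nitric oxide synthase NOS3. ENSSSCG00000006286, to which the files give no name, stood at 3637 CPM in fresh and 3330 CPM in cryopreserved blood endothelial cells and at 100 and 246 CPM in lymphatic cells. Places 11 to 20 held CLEC12B, CYYR1, MEOX1, MMRN2, EMCN, PTPRB, the arterial factor SOX17, CLIC5, RASGRF2 and TLL1.

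KIT, the stem cell factor receptor used as a mast cell marker, was also present, at 475 CPM in fresh and 410 CPM in cryopreserved blood endothelial cells. A KIT UMI was found in 38.8% of thinned cells in both libraries, against 4.44% and 12.3% of lymphatic cells. The mast cell genes MS4A2 and HDC had 1 and 0 UMIs over all fresh and 4 and 0 over all cryopreserved blood endothelial cells.

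Cryopreserved blood endothelial cells were shallower. The median was 6859.5 UMIs per fresh cell (95% interval from order statistics 6459 to 7527) and 4395 per cryopreserved cell (interval 3947 to 4656), a ratio of 0.641 (interval 0.524 to 0.721). In the 6 other classes this ratio ran from 0.627 in keratinocytes to 0.748 in T cells. The median number of genes was 2330.5 and 1793, and the median mitochondrial share 3.71% (interval 3.41 to 4.02%) and 4.10% (interval 3.78 to 4.49%). The cells hold 1708638 fresh and 1239518 cryopreserved UMIs in total.

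The rule was met narrowly by few cells. The median cell held 17 (fresh) or 10 (cryopreserved) UMIs of the 3 rule genes. At the threshold of 3 UMIs stood 11 fresh and 17 cryopreserved cells, and 10 and 22 cells with 2 UMIs that met the other conditions lay just outside. PROX1 limited the set next, since 12 and 14 chosen cells held 1 UMI while 43 and 49 cells were left out with 2 or more. The highest collagen share of a chosen cell was 0.382% and 0.755%, and the lowest share among cells left out for it was 2.46% in the cryopreserved library, with none left out in the fresh. The KRT5 limit left out 1 fresh and 5 cryopreserved cells.

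Some chosen cells held RNA of other cell types. At least 10 UMIs of the lymphatic, fibroblast, keratinocyte, mural, T and NK or myeloid marker list were found in 24 fresh and 25 cryopreserved cells. Lymphatic markers, whose most abundant gene was PDPN in fresh and CCL21 in cryopreserved cells, reached 10 UMIs in 12 and 17 cells and summed to 224 and 383 CPM. Fibroblast markers, led by COL1A2 and COL3A1, reached it in 7 and 3 cells and summed to 431 and 596 CPM, against 62548 and 63482 CPM in all other filtered cells. Mural markers summed to 330 CPM in fresh cells, led by RGS5, and to 48.7 CPM in cryopreserved cells, led by TAGLN, and the 5 richest fresh cells held 91.8% of those UMIs. Myeloid markers, led by C1QA, summed to 94.1 and 286 CPM, with 91.8% and 97.8% in 5 cells, and T and NK markers, led by CCL5, to 40.8 and 67.0 CPM. Keratinocyte markers, led by ITGB4, summed to 234 and 332 CPM. The defining T cell gene CD3E had 0 UMIs in fresh and 2 in cryopreserved cells, and the erythrocyte gene HBM had 0 in both. For some results that follow, values without these 49 cells are also given, an alternative chosen after seeing the data.

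Within the blood endothelial cells, some cytokine genes were higher in cells with venule anchors, and Notch and basement membrane genes were lower. A cell was put in the venous-anchor group when it held at least 2 UMIs of ACKR1 (chromosome 4, 91224089 to 91225610) and SELP (chromosome 4, 81376804 to 81401240) and more of these than of the arterial anchors GJA4, GJA5, SEMA3G and HEY1, and in the arterial-anchor group by the reverse. The third venous anchor, SELE, is not listed by name in the files. The venous-anchor group held 70 of 204 fresh cells (34.3%, exact 95% binomial interval 27.8 to 41.3%) and 90 of 250 cryopreserved cells (36%, interval 30 to 42.3%). The arterial-anchor group held 16 (7.84%, interval 4.55 to 12.4%) and 13 (5.20%, interval 2.80 to 8.73%), and 118 and 147 cells fell in neither. The arterial-anchor shares changed strongly with thinning and with the number of anchor UMIs required, as given with the other processing choices below. Median depth was 7487.5, 8078.5 and 6601.5 UMIs in fresh and 5139.5, 4971 and 3732 UMIs in cryopreserved venous-anchor, arterial-anchor and other cells.

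Gene lists were set beside all 4189 genes with at least 100 UMIs that are no anchors, of which 27.4% stood higher and 47.5% lower in venous-anchor cells than in cells of neither group in both libraries. Of 9 cytokine and chemokine genes, 6 were higher (CCL2, CSF3, CXCL10, CXCL2, IL33 and IL6), CSF1 and CXCL12 were lower, and CCL5 was not ordered alike in the libraries. CXCL12, with 20 and 27 cryopreserved UMIs, was higher in cryopreserved venous-anchor cells without the cells rich in other lineages (1.20 times). CCL2 was higher still in arterial-anchor cells, at 1605 and 1318 CPM against 462 and 1010 CPM in venous-anchor cells. A single arterial-anchor cell held 33.9% of that group's fresh and 93.1% of its cryopreserved CCL2 UMIs, so the cryopreserved order rests on a single cell. After thinning, a CCL2 UMI was found in 43.8% and 23.1% of arterial-anchor against 32.9% and 48.2% of venous-anchor cells. Of 5 leukocyte adhesion genes, VCAM1 and ICAM1 were higher and CD34 and ICAM2 lower. All 11 vascular basement membrane genes, 7 of 8 Notch genes and 10 of 11 immediate early genes were lower, while 5 of 6 MHC class II genes were higher. Of these, CD74 was nearly level (4332 against 4172 CPM in fresh and 5427 against 5198 CPM in cryopreserved cells), and SLA-DMB, with 36 and 37 fresh UMIs, was lower in fresh venous-anchor cells without the cells rich in other lineages (0.934 times). These are counts of direction with no test, and CSF3, IL6, PTGS2 and CXCL2 are described next as genes of large difference.

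CSF3 (chromosome 12, 22333445 to 22335949), the cytokine that mobilizes neutrophils, stood at 1449 CPM in the venous-anchor cells of the fresh library and at 10.3 CPM in the cells of neither group. The values were 1555 and 36.1 CPM in the cryopreserved library. A CSF3 UMI was found in 44.3% (interval 32.4 to 56.7%) of thinned fresh venous-anchor cells against 1.74% (interval 0.211 to 6.14%) of the other cells, and in 48.2% against 1.49% in the cryopreserved library. The richest single venous-anchor cell held 18.2% of that group's CSF3 UMIs in fresh and 9.17% in cryopreserved cells. In the cells of neither group a single cryopreserved cell held 83.3% of the 24 UMIs.

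IL6 (chromosome 9, 91506421 to 91510830), a cytokine of acute inflammation, went the same way. It reached 4839 CPM in fresh and 4413 CPM in cryopreserved venous-anchor cells and 586 and 376 CPM in cells of neither group. An IL6 UMI was present in 84.3% (interval 73.6 to 91.9%) of fresh and 88.2% (interval 79.4 to 94.2%) of cryopreserved venous-anchor cells after thinning. The prostaglandin synthase gene PTGS2 (chromosome 9, 127850164 to 127858866) stood at 1050 and 1131 CPM against 74.4 and 36.1 CPM, and the neutrophil chemokine CXCL2 at 13124 and 18060 CPM against 3063 and 3863 CPM. For each of these 4 genes the venous-anchor cells stood above the cells of neither group in both libraries.

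The leukocyte adhesion genes differed among themselves. VCAM1 (chromosome 4, 117496914 to 117511211), which binds integrins of lymphocytes and monocytes, stood at 822 CPM in fresh venous-anchor cells and 34.3 CPM in cells of neither group, and at 445 and 88.8 CPM in cryopreserved cells. ICAM1, the ligand of leukocyte integrins, differed less, at 1254 against 698 CPM and at 1272 against 739 CPM. ICAM2 went the other way, at 28.6 against 60.7 CPM in fresh and 27.3 against 75.3 CPM in cryopreserved cells, and CD34 at 119 against 191 CPM and 123 against 187 CPM. The tissue plasminogen activator PLAT was at 730 and 920 CPM against 199 and 138 CPM. PLVAP was at 908 and 1102 CPM against 612 and 593 CPM. ENSSSCG00000006286 was at 6082 and 5593 CPM in venous-anchor cells, at 2639 and 1974 CPM in cells of neither group, and at 5 and 0 UMIs in arterial-anchor cells.

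Other genes were lower in the venous-anchor cells. EFNB2 (chromosome 11, 74188337 to 74232768), the ephrin ligand of arteries, was at 116 and 91.8 CPM there, at 358 and 288 CPM in cells of neither group and at 625 and 517 CPM in arterial-anchor cells. Of 7 arterial genes, 6 were lower in venous-anchor cells than in cells of neither group in both libraries, beside 47.5% of all genes. Among these 6, DLL4, JAG1 and NOTCH4 are also counted among the lower Notch genes and CXCL12 among the cytokines, so the lists are not separate. SOX17 was higher, at 149 and 147 CPM against 103 and 111 CPM. The Notch ligand DLL4 was at 23.8 and 17.6 CPM against 98.4 and 93.3 CPM. COL18A1, a basement membrane collagen, was at 141 and 170 CPM against 731 and 967 CPM, and KIT at 221 and 152 CPM against 704 and 608 CPM. Of the rule genes, the junction gene CDH5 was nearly level, at 332 and 344 CPM against 331 and 331 CPM. VWF was higher in venous-anchor cells, at 1033 and 1133 CPM against 640 and 753 CPM. MECOM was lower, at 1020 and 969 CPM against 1327 and 1108 CPM.

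Ranking all genes with at least 50 UMIs between arterial-anchor and venous-anchor cells, leaving out genes with no arterial UMI in either library, gave ENSSSCG00000006286, CSF3, SH3RF2, TLL1, MT3, CD80, IL6, LRRC1, ADGRG6 and ARNTL2 on the venous side. Most of these ranks rest on few arterial UMIs, with 1 and 1 for CSF3, 2 and 1 for MT3, and 0 in the cryopreserved library for ENSSSCG00000006286, SH3RF2, TLL1, CD80, LRRC1 and ARNTL2, which were ranked by the fresh library alone. ADGRG6, an adhesion receptor, was at 981 and 932 CPM in venous-anchor and 80.8 and 38.8 CPM in arterial-anchor cells. SPOCK2, ENSSSCG00000042044, SLIT3, PDGFD, CACNB2, S100A4, PLCL1, OLFM2, VLDLR and RASD1 led on the arterial side. Each of these had at most 5 venous-anchor UMIs in either library, and all but S100A4 and PLCL1 had 0 in one library and were ranked by the other alone. SPOCK2, a matrix proteoglycan, was at 280 CPM from 52 UMIs in fresh and 297 CPM from 23 UMIs in cryopreserved arterial-anchor cells, and at 1.59 CPM in fresh and 0 in cryopreserved venous-anchor cells. Of the arterial-anchor cells, 5 fresh and 1 cryopreserved held at least 10 mural UMIs, and the part of mural RNA in the arterial values was not tested. Of the cells in neither group, 12 fresh and 17 cryopreserved held at least 10 lymphatic UMIs, and the lymphatic genes CCL21, RELN and FLT4 were among those highest there against venous-anchor cells. Without the cells rich in other lineages the venous-anchor level of CSF3 was still 127 and 35.1 times, and that of IL6 7.14 and 11.2 times, the level in neither group.

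**Figure D2:**
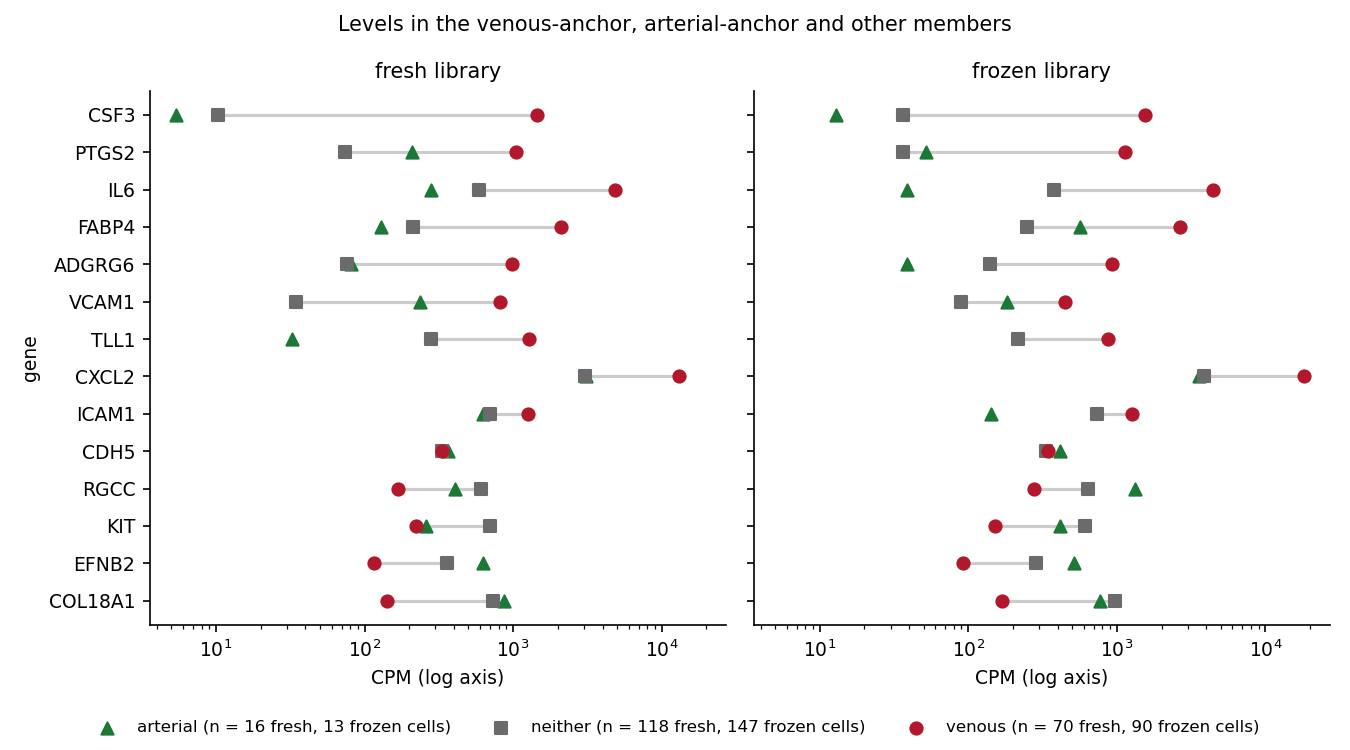
CPM (horizontal, log axis) of 14 genes (vertical) summed over the venous-anchor, arterial-anchor and other blood endothelial cells of the fresh (left) and frozen (right) library. The red venous-anchor points lie to the right of the grey points from CSF3 to ICAM1 and to the left from RGCC to COL18A1 in both panels, and CDH5 points nearly coincide.

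The most variable genes of the libraries overlapped in part. After thinning to 2000 UMIs, 18 of the 50 genes with the highest variance over mean in one library were also among the 50 of the other (36% of each list). CXCL2 led the mean rank, with a variance over mean of 27.9 in fresh and 43.0 in cryopreserved cells, followed by HSP70.2, the metalloproteinase inhibitor TIMP1, the fatty acid carrier FABP4 and IL6. The next 10 were ENSSSCG00000048856, CDC25B, CSF3, ENSSSCG00000006286, CCL4, AKAP12, SELP, FOS, CXCL10 and CXCL9. CXCL9, an interferon-induced chemokine, had the highest value of all in the fresh library, 53.0, against 5.81 in the cryopreserved library, and a single fresh cell held 82.9% of its UMIs. A single cell also held 53.2% of the cryopreserved AKAP12 UMIs, 36.1% (fresh) and 35.1% (cryopreserved) of those of CDC25B, 27.4% of the fresh CXCL10 UMIs and 26.3% of the cryopreserved CCL4 UMIs.

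The comparison of conditions asked which genes differed between fresh and cryopreserved blood endothelial cells. Per library the UMIs of all blood endothelial cells were added up, and a gene counted as past the fold when the log2 of cryopreserved over fresh CPM was at least 0.5 in size among 4191 genes with at least 100 UMIs. Of these, 310 were higher (7.4%) and 395 lower (9.42%) in cryopreserved cells, or 16.8% in either direction, and 45 and 35 were past 1. Which direction held more genes depended on the processing. Scaling by total UMIs gave 358 higher and 322 lower, and a minimum of 20 UMIs gave 1227 higher and 1218 lower. The median log2 ratio was -0.09 and the median size 0.25. Over the 154 genes of the endothelial and stress lists that reached 100 UMIs, 12 were higher and 5 lower, or 11%, not above the 16.8% of all genes. These 154 include the 3 rule genes. The list counts that follow stand beside the shares of all genes given here, and no list was tested against them.

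**Figure D3:**
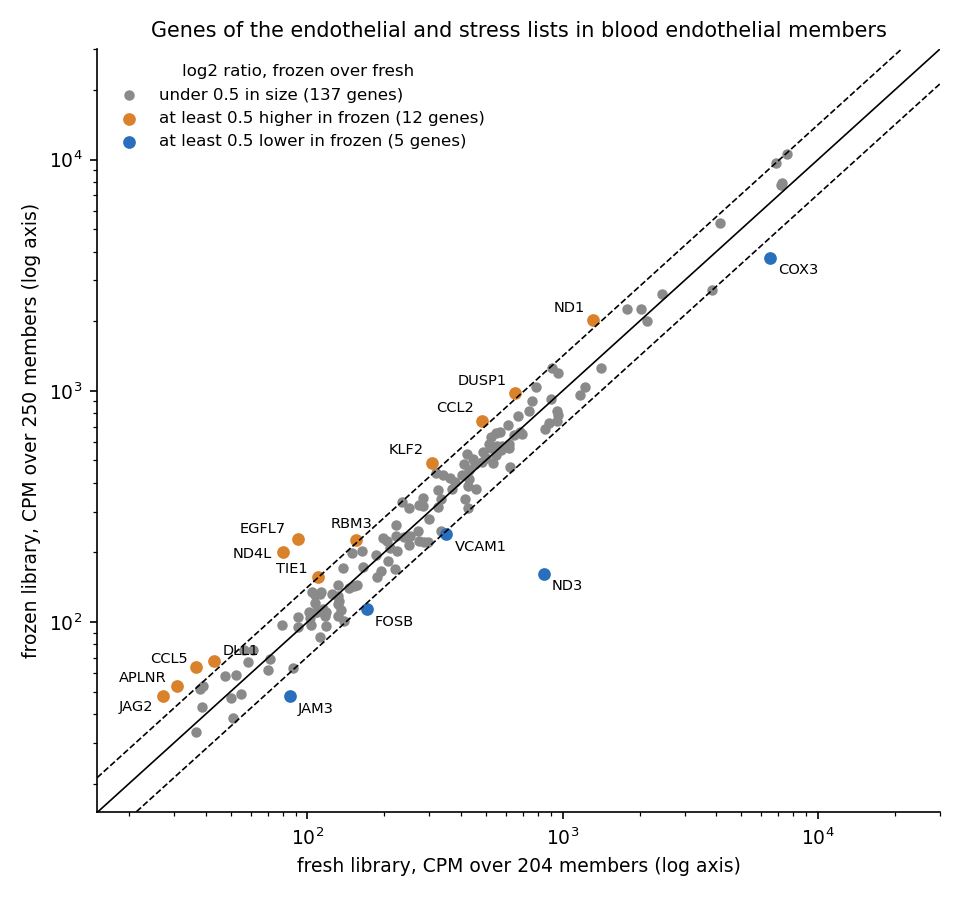
CPM in fresh (horizontal) and frozen (vertical) blood endothelial cells, both on log axes, for the 154 list genes with at least 100 UMIs, with lines at equal level (solid) and at log2 ratios of 0.5 and -0.5 (dashed). Orange points (12 genes) lie above and blue points (5 genes) below the dashed lines, with ND3 farthest below.

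Of 20 endothelial markers outside the rule, 2 were higher, 0 lower and 18 between, beside 16.8% of all genes past the fold, with a median of 0.00. IL33 was at 1171 CPM (exact 95% Poisson interval 1120 to 1224) in fresh and 958 CPM (interval 905 to 1014) in cryopreserved cells, a log2 ratio of -0.29, which was -0.61 in venous-anchor cells and -0.09 in cells of neither group. CLDN5 was at 430 and 452 CPM. EGFL7, a secreted vessel factor, was 1.32 higher on the log2 scale, at 91.7 CPM (interval 77.9 to 107) from 155 UMIs and 229 CPM (interval 203 to 257) from 287 UMIs. In the 4 other classes with a ratio, EGFL7 was at 0.89 in lymphatic and 0.90 in myeloid cells, and its higher values in fibroblasts (4 and 20 UMIs) and keratinocytes (2 and 10 UMIs) rest on few UMIs. The receptor kinase TIE1 lay at the threshold, at 110 and 156 CPM and a log2 ratio of 0.51. Among 11 junction genes, which include the rule gene CDH5, 0 were higher. JAM3, a junctional adhesion molecule, was lower, at 85.2 and 47.9 CPM and a log2 ratio of -0.83.

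None of 14 endothelial transcription factors, which include the rule gene MECOM, was past the fold, with a median of -0.13. ERG, at 949 and 744 CPM (log2 ratio -0.35), was the lowest of them. Within the venous-anchor cells ERG was at 1066 and 619 CPM, a log2 ratio of -0.78, and in the cells of neither group its ratio was -0.12. The 7 arterial genes with enough UMIs had a median of -0.10 and none past the fold. Of 8 venous genes, CCL2 was higher and VCAM1 lower, with a median of -0.01. CCL2, the monocyte chemokine, was at 484 CPM (interval 452 to 519) and 742 CPM (interval 695 to 791), a log2 ratio of 0.62 in all cells, 1.13 within the venous-anchor cells and 0.84 within the cells of neither group. VCAM1 was at 350 CPM (interval 323 to 380) and 240 CPM (interval 214 to 269), a log2 ratio of -0.55 in all cells and -0.88 within the venous-anchor cells. In the cells of neither group VCAM1 was higher in the cryopreserved library, at 34.3 CPM from 30 UMIs and 88.8 CPM from 59 UMIs. An adhesion gene and a chemokine of the same list lay on opposite sides.

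The cytokine list had 2 of 9 genes higher, CCL2 and CCL5, and 0 lower, beside 7.4% higher and 9.42% lower over all genes. Its median was 0.26, or 0.14 without the cells rich in other lineages. CCL5 rested on few cells, since a single cryopreserved cell held 45% of its 80 UMIs, and its log2 ratio of 0.80 became -1.57 without the cells rich in other lineages. CXCL2 was at 6821 and 9642 CPM (log2 ratio 0.50, just under the fold, and 0.60 without those cells), CSF3 at 546 and 655 CPM, and IL6 at 2139 and 2004 CPM. CSF3 and IL6 lay within the fold between the libraries. Of 6 adhesion genes, 0 were higher and VCAM1 was lower, with a median of 0.05, and SELP was at 514 and 589 CPM.

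KLF2, the flow-induced transcription factor of endothelium (chromosome 2, 61270733 to 61273037), was the 1 gene of 8 in the flow response and tone list past the fold, at 307 CPM (interval 281 to 335) and 489 CPM (interval 451 to 529). Its log2 ratio was 0.67 in all cells, 1.22 in venous-anchor cells (157 and 365 CPM) and 0.58 in cells of neither group. Without the cells rich in other lineages KLF2 was at 97.1 and 368 CPM in venous-anchor cells, and a single cell held 21.2% of the fresh and 23.5% of the cryopreserved KLF2 UMIs of that group. The KLF2 ratio ran from -0.01 in mural cells to 0.48 in myeloid cells in the 6 other classes. The list's median was 0.02, and its nitric oxide synthase NOS3 was at 104 and 97.3 CPM. Notch genes had 2 of 8 higher, beside 7.4% of all genes, with a median of 0.13. These were the ligands DLL1 (43.2 and 67.8 CPM) and JAG2 (27.2 and 47.9 CPM). The log2 ratio of DLL1 was 0.65 with and 0.39 without the cells rich in other lineages. Of 10 VEGF and angiopoietin genes, TIE1 alone was higher and 0 were lower, with a median of -0.08. ANGPT2, an angiopoietin ligand, had a log2 ratio of -1.21 in venous-anchor cells (74 and 26 UMIs) and -0.28 in cells of neither group.

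The capillary list had the highest median of the vessel lists, 0.34, with 1 of 6 genes higher, beside 7.4% of all genes, and 0 lower. That gene was APLNR, at 30.8 CPM (interval 23.0 to 40.4) and 52.7 CPM (interval 40.7 to 67.0). FABP4 was at 904 and 1253 CPM with a log2 ratio of 0.47, and 21.1% of its fresh UMIs came from a single cell. Without the cells rich in other lineages the list's median was 0.51, with FABP4 at 0.57 and RGCC at 0.54. RGCC, a cell cycle regulator of capillary endothelium, was at 422 and 533 CPM, while CD36 was at 220 and 169 CPM. Of the list's 6 genes, CD36, FABP4 and FABP5 stood higher and RGCC lower in venous-anchor cells than in cells of neither group in both libraries. FABP4 was at 2093 and 2661 CPM in venous-anchor cells against 212 and 248 CPM.

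Haemostasis genes (median 0.25 over 8 genes), caveola genes (0.09 over 8) and vascular basement membrane genes (0.05 over 11) held 0 genes past the fold over all cells. Within the venous-anchor cells the laminin gene LAMA4 was at 238 CPM from 150 UMIs and 97.7 CPM from 50 UMIs, against 319 and 289 CPM in the cells of neither group. VWF, counted in the haemostasis list, stood at 755 and 900 CPM, but it is a rule gene, so the rule shapes its level in these cells. The caveola coat protein CAV1 was at 427 and 311 CPM (log2 ratio -0.46, or -0.53 without the cells rich in other lineages) and the collagen COL4A1 at 789 and 1038 CPM. MHC class I genes had a median of -0.18 over 5 genes and MHC class II genes of 0.16 over 6, with 0 past the fold in either over all cells. NLRC5, an activator of class I genes, had a log2 ratio of -1.03 in venous-anchor cells and -0.12 in cells of neither group. The class I light chain B2M was at 3831 CPM (interval 3738 to 3925) and 2732 CPM (interval 2642 to 2825), a log2 ratio of -0.49. The class II chaperone CD74 was at 4120 and 5306 CPM and the class II chain SLA-DRA at 614 and 589 CPM.

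Stress genes were mixed. Of 11 immediate early genes, DUSP1, a phosphatase that ends MAP kinase signals, was higher (652 and 979 CPM, log2 ratio 0.59) and FOSB was lower (170 and 113 CPM, log2 ratio -0.59, or -0.32 without the cells rich in other lineages), with a median of 0.03. FOS was at 579 and 578 CPM over all cells, but at 344 and 217 CPM in venous-anchor cells, 656 and 884 CPM in cells of neither group and 1018 and 349 CPM in arterial-anchor cells. None of 11 heat shock chaperones was past the fold, with a median of 0.01. The cold-induced RNA-binding protein gene RBM3, the 1 cold response gene listed by name, was at 154 CPM (interval 136 to 174) and 226 CPM (interval 200 to 254), a log2 ratio of 0.55, and its ratio ran from 0.24 to 0.64 in the 6 other classes. The only cell division gene with 100 UMIs, NUSAP1, was at 108 and 110 CPM.

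**Figure D4:**
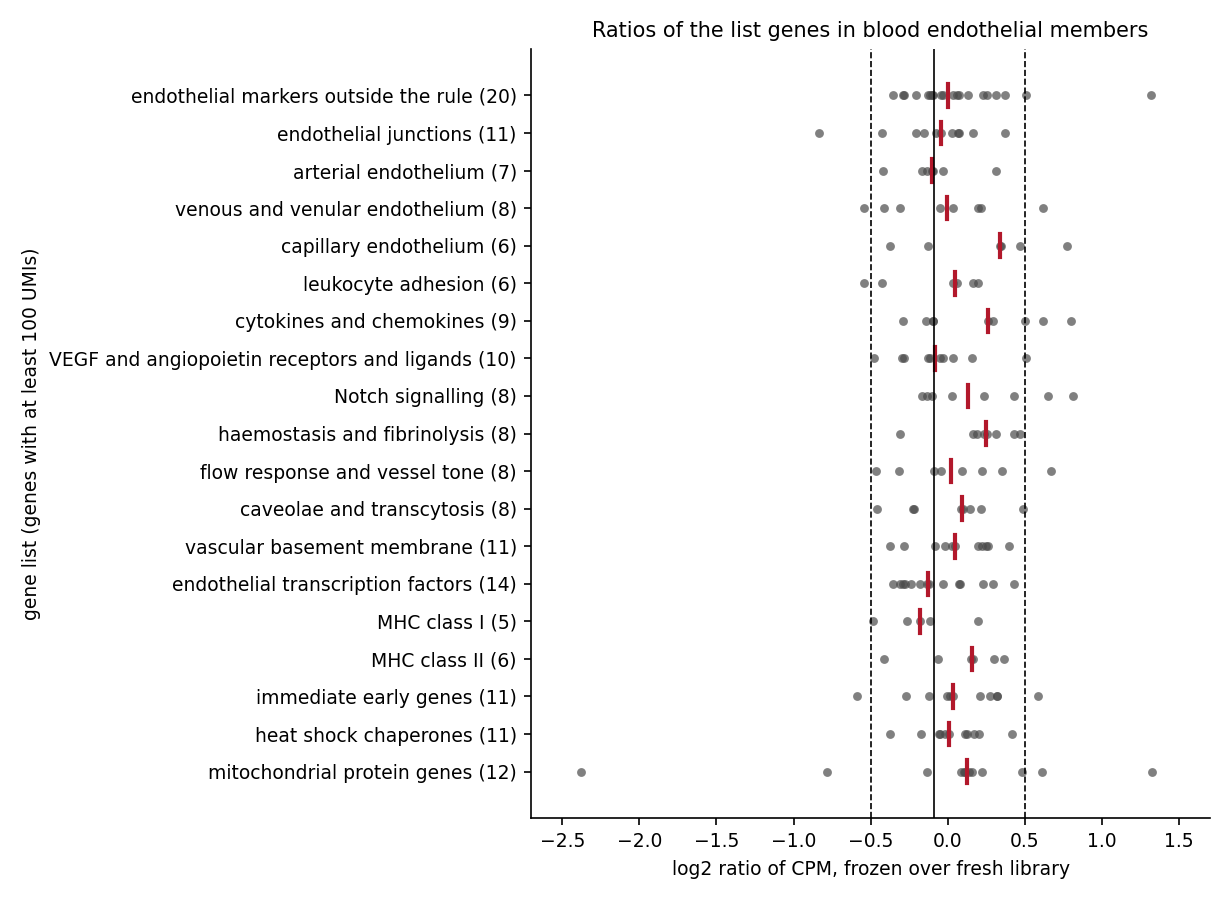
Log2 ratio of CPM, frozen over fresh (horizontal axis), of each list gene with at least 100 UMIs in blood endothelial cells (dots) by gene list (vertical axis, number of genes in parentheses), with list medians (red bars), the median of all genes (solid line, -0.09) and 0.5 and -0.5 (dashed). All red bars lie between the dashed lines, and the widest spread is in the mitochondrial genes.

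Mitochondrial protein genes went both ways, with 2 of 12 higher (ND1 and ND4L), 2 lower (ND3 and COX3) and a median of 0.12. Over all genes 7.4% were higher and 9.42% lower. ND3 was at 843 and 162 CPM, a log2 ratio of -2.38, and in the 6 other classes its ratio ran from -2.76 to -2.01. COX3 was at 6468 and 3761 CPM. PRMT2, an arginine methyltransferase, had the lowest ratio among genes with no cell over 20% of the UMIs, at 98.3 CPM from 166 UMIs and 10.4 CPM from 13 UMIs (log2 ratio -3.24), and its ratio was -2.50 or lower in each of the 6 other classes. After PRMT2 and ND3 the lowest were NHS, ENSSSCG00000045957, ENSSSCG00000041231, SLC10A7, PLCL1, GPM6A, ENPP1 and BCAR3, from -2.05 to -1.20. Without the cells rich in other lineages BCAR3 was at -0.53 and GPM6A at -2.20, the latter from 68 fresh and 11 cryopreserved UMIs. GPM6A was at 1168 and 924 CPM in lymphatic cells, against 95.3 and 40.7 CPM in all blood endothelial cells. NHS, a regulator of actin remodelling, was at 145 and 35.1 CPM, with a ratio of -2.35 in lymphatic cells (24 and 3 UMIs), of -0.55 in fibroblasts, -0.06 in keratinocytes and -0.12 in mural cells, and of 1.78 in myeloid cells (8 and 34 UMIs), while T cells held 21 and 0 UMIs.

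The highest ratios were those of STAB1, PRR16, ENSSSCG00000041449, ENSSSCG00000051070, SERF2, ATP6V0B, ND4L, EGFL7, ENSSSCG00000047868 and MT1X, from 1.73 to 1.23. The scavenger receptor STAB1 went from 18.9 to 63.0 CPM, and its log2 ratio of 1.73 was 0.50 without the cells rich in other lineages. PRR16 (chromosome 2, 124198883 to 124463892) was at 166 CPM (interval 147 to 186) and 502 CPM (interval 463 to 543), a log2 ratio of 1.60, and in the 6 other classes it ran from -0.13 in fibroblasts to 1.33 in lymphatic cells. The metallothionein MT1X, which binds zinc, was at 1025 and 2401 CPM, a log2 ratio of 1.23, with ratios from 0.74 to 3.46 in the 6 other classes. The lower depth of cryopreserved cells moves with these ratios, and its part was not tested. Before genes with a dominant cell were set aside (146 of 4191), the extremes of the list were genes of other lineages, such as ACTA2 of mural cells at a log2 ratio of -4.22.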

How the data were processed

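The authors deposited UMI counts of genes per barcode for each library, made with Cell Ranger 4.0.0 and STAR 2.5.1b on the Sscrofa11.1 genome with Ensembl annotation. From these counts, cells were filtered by the study's limits and picked by the marker rule, and their UMIs were summed per library and scaled by TMM in edgeR 4.0.16 to CPM. Where the files gave no symbol, names of 772 of 31908 gene rows came from the reference table. With 1 library per condition no test was run, and a fold of 0.5 on the log2 scale served as the threshold. Named genes were those of 31 gene lists, the 20 most concentrated in these cells, the 10 highest and 10 lowest ratios without a cell over 20% of the UMIs, the 15 most variable, and the 10 leading genes of each anchor group. The lists hold genes not listed by name in the files, which are not analysed here. The cells and lists were chosen with earlier results of these data known. Scrublet called 3 fresh (0.108%) and 35 cryopreserved (0.829%) filtered cells as doublets, of which 0 and 2 were blood endothelial. No cell was removed for these calls. The study describes gating out doublets by scatter before library preparation, and also a magnetic removal of dead cells. Why the calls were few was not tested. Of cells rich in other lineages, 8 of 24 fresh and 6 of 25 cryopreserved were in the highest 6% of doublet scores. The scripts were tested on simulated data. Alternatives were other cell limits, rule thresholds, gene minima, scalings and thinning depths. Analyses used Python 3.11.15, numpy 2.4.6, scipy 1.17.1, pandas 2.3.3, scanpy 1.11.5 and matplotlib 3.10.9.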

Additional observations from a re-analysis of the deposited data

Results flagged for a closer look

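The marker rule was also met by barcodes that the study's limits remove, which the values of the report leave out. In the fresh library 28 such barcodes met it, 14 above the mitochondrial limit and 14 above the maxima of genes or UMIs. In the cryopreserved library 12 met it, 10 and 2 by the same division. VWF stood at 425 CPM in the fresh and 631 CPM in the cryopreserved barcodes, and IL33, outside the rule, at 674 and 518 CPM. Whether they are damaged cells or droplets with several cells was not tested.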

How the results depend on the processing

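No paired analysis was possible because each condition has 1 library, and leaving out a replicate was not possible for the same reason. Of 114 values for the main comparisons, 93 kept within their interval or within 1.5 times, and no single value was counted as reversed. The order of the counts of higher and lower genes, 310 and 395 in the main setting, did reverse in 2 settings given below, scaling by total UMIs and at least 20 UMIs per gene. The share of blood endothelial cells was 6.67% (fresh) and 5.09% (cryopreserved) with at least 5 rule UMIs, and 5.77% and 5.57% with no mitochondrial limit, where the libraries were nearly level. With at least 20 UMIs per gene 1227 of 8464 genes were higher and 1218 lower (median size 0.31). With at least 1 UMI 3891 of 16396 genes were higher and 4618 lower (median size 0.55). In both settings a larger share of genes was past the fold than with at least 100 UMIs. Without the cells rich in other lineages, an alternative chosen after seeing the data, 290 of 3700 genes were higher and 331 lower (median size 0.24). Thinning to 2000 UMIs gave venous-anchor shares of 26.4% fresh and 28.9% cryopreserved and arterial-anchor shares of 3.48% and 2.59%, and 1 anchor UMI gave arterial-anchor shares of 19.6% and 10.8%. Thinned to 1000 UMIs, cells with a UMI were 51.5% and 50.6% for IL33, 26.5% and 29.3% for CLDN5, and 56.9% and 57.8% for PECAM1. Scaling by total UMIs gave 358 higher and 322 lower, and DESeq2 size factors 304 and 407. Of 286 list medians 27 moved by over 0.1, and of 572 values of named genes 26 left their counting interval.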

Other observations

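Blood endothelial cells were split by FABP4, a fatty acid carrier, after its values were seen, and the genes given here were also picked afterwards and set beside no fixed list. At least 2 FABP4 UMIs in the profile thinned to 2000 UMIs were found in 30 fresh and 48 cryopreserved cells, and 0 in 156 and 161. The fatty acid receptor CD36 was at 882 and 495 CPM in the former and at 30.5 and 44.1 CPM in the latter. PPARG, the nuclear receptor of fat storage, was at 650 and 564 CPM against 177 and 117 CPM, and CEBPD at 2659 and 3926 CPM against 704 and 900 CPM. LPL, which acts on lipoproteins at the capillary wall, had 0 UMIs in the FABP4 cells of both libraries. GPIHBP1, which anchors LPL there, was at 13.6 and 40.5 CPM against 14.8 and 8.82 CPM, from 5 and 13 UMIs against 18 and 7. The venule anchor SELP was at 925 and 1119 CPM in the FABP4 cells against 345 and 347 CPM.

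The ratio of cryopreserved to fresh cells went with gene length, a description across genes that were matched to RefSeq (3748 of 4191, 89.4%) and are not independent replicates. In blood endothelial cells the median log2 ratio was 0.22 in the 937 shortest genes (0.297 to 19.1 kb) and -0.26 in the 937 longest genes (121 to 2052 kb), with -0.05 and -0.20 in the equal groups between. In fibroblasts the medians of the shortest and longest groups were 0.25 and -0.20, in mural cells 0.19 and -0.13, in lymphatic cells 0.21 and -0.24, and in keratinocytes 0.10 and -0.09.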
